A study of Mus musculus with 8 samples.

Results

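Solute carriers are membrane proteins that move small molecules such as amino acids, sugars, metals, inorganic ions and nucleotides across the plasma membrane or the membranes of organelles. All genes of the deposited table whose symbol begins with Slc and a number were taken, except Slc2a1, which gave 24 of the table's 2000 genes. Carriers outside those 2000 genes could not be described. They were described in single cells from tumours of Hepa1-6, a mouse hepatoma cell line. The cells came from 4 groups: WT tumours or tumours of Soat1-edited cells, each from animals given PBS or a PD1 antibody into the peritoneum. Titles call the edited tumours KO and the genotype field calls them knockdown, and the labels seen here give neither clones nor animals per group. Soat1 encodes an enzyme that esterifies cholesterol. No label ties a cell to a group, so the genotypes and treatments could not be compared and the table was treated as 1 sample. The last number of each cell name divides the 53528 cells into 6 sets of unknown group, with 9370, 7569, 11813, 7798, 8122 and 8856 cells in order.

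Several of these carriers have textbook roles in tumours and immune cells. The cystine and glutamate exchanger made with Slc7a11 supplies cystine for glutathione, the arginine transporter encoded by Slc7a2 feeds arginase and nitric oxide synthase in macrophages, and ferroportin, encoded by Slc40a1, is the cellular iron exporter. Hepatocytes use others, such as Slc10a1 for bile acids.

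Cells were gated by marker genes, none of them a solute carrier, and each gate name below means cells like that class by these markers. Over all sets 29089 cells fell in the hepatoma gate, 4154 in the macrophage gate, 1015 in the monocyte gate, 521 in the neutrophil gate, 12874 in the T cell gate, 638 in the dendritic cell gate and 832 in the fibroblast gate. A further 5 gates, including NK, endothelial and mast cell or basophil gates, were kept out of the comparison, and 3301 cells (6.17%) were left ungated. In set 1 the markers highest in their own class were 16 of 18 for hepatoma, 10 of 11 for macrophages, 7 of 11 for monocytes, 12 of 12 for neutrophils, 16 of 16 for T cells, 13 of 14 for dendritic cells and 14 of 15 for fibroblasts. Summed marker RNA of the monocyte list was 5038 CPM in its own gate and 6632 CPM in the fibroblast gate. The marker Fn1 alone gave 1159 CPM of the first and 5950 CPM of the second. By its 7 of 11 markers, the monocyte gate is the least clear of the 7. Near its cut lay 12.8% of the monocyte gate, 11.4% of the dendritic cell gate and 1.56% to 6.6% of the others. The median marker score of a gate for its own list was 0.279 to 0.569, and the highest median for another list was 0.0973 to 0.165. In set 1 the gates held 6423 hepatoma, 624 macrophage, 91 monocyte, 92 neutrophil, 1282 T, 59 dendritic and 73 fibroblast cells. Their median depths were 17975, 2768, 2794, 1252, 4793, 4574 and 6826 UMIs (unique molecular identifiers, which count captured RNA molecules). Levels below are CPM, the UMIs of a gene per 1000000 UMIs, summed over the cells of a gate in set 1, with exact Poisson 95% intervals that cover counting error only. Mean values are on the deposited natural log scale and were compared in each set. Cells outside set 1 all hold values below 0, and cells of set 1 hold none. Whether the unknown step behind this made the sets more alike was not tested. It is also unknown whether some sets share a group or an animal. A direction found in 6 of 6 sets is therefore a description and does not count as 6 independent results.

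The largest separations between classes were those of Slc17a6 and Slc16a11 in T cells, Slc10a6 in fibroblasts, Slc7a11 in neutrophils and Slc7a2 in macrophages. A carrier was called for a class when its CPM plus 1 was at least 2 times that of the next class, on at least 10 UMIs, and its mean value was highest in that class in all 6 sets. The rule called 10 of the 24 carriers (41.7%), against 37% of the 1836 genes of the table that were no marker, so a call as such was about as frequent among carriers as among other genes. The calls were 3 for macrophages, 2 each for hepatoma, T cells and fibroblasts, 1 for neutrophils, and 0 for monocytes and dendritic cells. Over all tested genes the calls were 2.23% for macrophages, 8.88% for hepatoma, 6.54% for T cells, 15.4% for fibroblasts, 1.42% for neutrophils, 0.763% for monocytes and 1.74% for dendritic cells. By the lists used, which place a gene by its family, 4 of 4 amino acid carriers, 2 of 2 metal carriers, 1 of 1 monocarboxylate carrier, 1 of 2 peptide and bile acid carriers, 1 of 4 sugar carriers and 1 of 5 carriers of ions and phosphate were called. In the lists of mitochondrial carriers, of vitamin and heme carriers, and of vesicular and other carriers, 0 of 2 were called in each. The ion and phosphate list holds the Slc17 genes, and its 1 call was Slc17a6, which carries glutamate. These lists are too small to set one against another. The median log2 ratio of the top to the next class was 1.09 over the carriers and 0.92 over all tested genes.

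**Figure D1:**
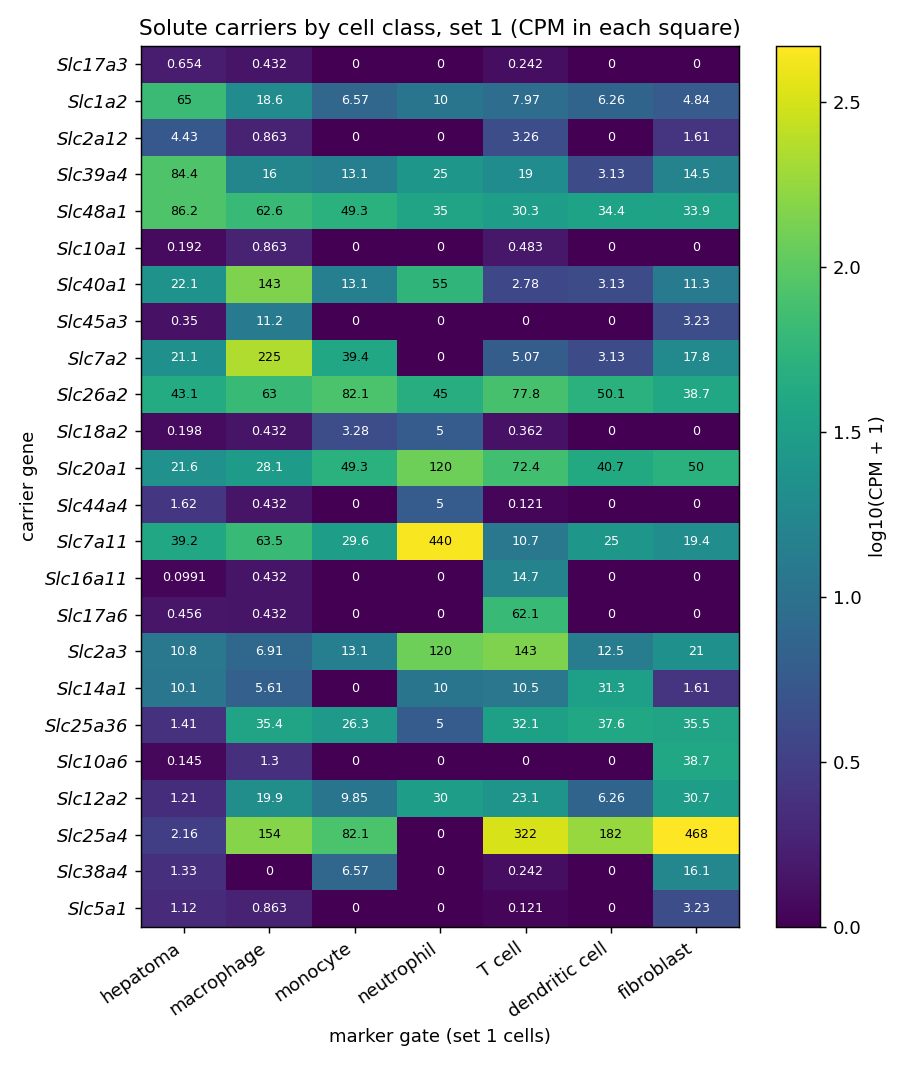
Level of each of the 24 carriers (rows) in the 7 marker gates of set 1 (columns), as log10(CPM + 1) in colour and CPM in each square. Rows are ordered by the gate with the highest level and are to be read across, since CPM is not scaled to gene length. Slc7a11 in neutrophils, Slc7a2 and Slc40a1 in macrophages and Slc17a6 in T cells stand out in their rows, while Slc26a2 is spread over all 7 gates.

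Slc7a11, which exports glutamate in exchange for cystine, marked the neutrophil gate. Its mean values there were 1.11, 1.46, 0.93, 1.15, 1.40 and 1.37 in sets 1 to 6, and the highest mean in any other of the 7 gates of any set was 0.39, in macrophages of set 4. Neutrophils were thus apart from every other gate in each set, with no overlap. The level in set 1 was 440 CPM (353 to 542) in neutrophils, 63.5 CPM in macrophages and 10.7 CPM in T cells, a ratio of neutrophils to macrophages of 6.94 (5.26 to 9.09). A UMI of Slc7a11 was found in 45.7% of neutrophils and 6.40% of T cells, at median depths of 1252 and 4793 UMIs. With every cell thinned to 1000 UMIs these shares were 38% and 1.48%.

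Slc7a2, the carrier of arginine and other cationic amino acids, marked macrophages. Mean values in macrophages were 0.63, 0.69, 0.66, 0.74, 0.76 and 0.63 in sets 1 to 6, and no other of the 7 gates passed 0.25. The endothelial gate, which was not compared, had 0.05 to 0.49 and reached its highest in set 4. Set 1 gave 225 CPM (206 to 245) in macrophages and 39.4 CPM in monocytes, a ratio of 5.70 (3.23 to 11.1). Hepatoma cells had 21.1 CPM, T cells 5.07 CPM, and neutrophils no UMI, which allows up to 15 CPM by the limit of 3 counts. Within the macrophage gate of set 1, the 20% of cells with the highest Arg1 value, Arg1 being the enzyme that splits arginine into ornithine and urea, held 507 CPM (438 to 584) of Slc7a2 against 170 CPM in the rest. The ratio was 2.99 (2.49 to 3.58), and the mean value was higher in Arg1-high macrophages in 6 of 6 sets, by 0.28 to 0.51. This split was chosen after values had been seen.

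Slc1a2, a high-affinity glutamate importer best known from astrocytes, marked hepatoma cells. Its mean value in hepatoma cells was 0.36, 0.38, 0.36, 0.34, 0.35 and 0.39 in sets 1 to 6, against at most 0.12 in any other of the 7 gates. The level was 65 CPM (63.7 to 66.3) on 9836 UMIs, against 18.6 CPM (13.4 to 25) in macrophages, a ratio of 3.50 (2.60 to 4.84). The endothelial gate, which was not compared, had 36.7 CPM (15.8 to 72.3) on 8 UMIs, and against it the fold of 2 was not reached. Slc38a4, a sodium-coupled importer of neutral amino acids, was called for fibroblasts on only 10 UMIs, with 16.1 CPM (7.74 to 29.7) against 6.57 CPM on 2 UMIs in monocytes and a ratio of 2.46 (0.524 to 23.1). Mean values in fibroblasts were 0.06, 0.04, 0.08, 0.04, 0.12 and 0.06, and at most 0.02 elsewhere among the 7 gates. The endothelial gate, which was not compared, had 27.5 CPM of Slc38a4 in set 1, on 6 UMIs in 1 cell. The call was lost with a stricter gate and without the 5% of cells with the most UMIs.

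The iron exporter Slc40a1 was highest in macrophages. Mean values in macrophages were 0.43, 0.39, 0.43, 0.28, 0.28 and 0.47 in sets 1 to 6. In neutrophils, the next gate by CPM in set 1, they were 0.20, 0.20, 0.14, 0.23, 0.24 and 0.38. The hepatoma gate, at 0.16, was above neutrophils in set 3. Macrophages were above neutrophils within each set, although neutrophils of set 6 were above macrophages of sets 4 and 5. Set 1 held 143 CPM (128 to 160) in macrophages and 55.0 CPM (27.5 to 98.4) in neutrophils, a ratio of 2.61 (1.44 to 5.27). T cells held 2.78 CPM and dendritic cells 3.13 CPM on 1 UMI. Unlike Slc7a2, Slc40a1 had near-equal levels in Arg1-high and other macrophages, at 149 and 142 CPM with a ratio of 1.04 (0.770 to 1.40).

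Slc39a4, a zinc importer of the plasma membrane, marked hepatoma cells with mean values of 0.46, 0.46, 0.49, 0.48, 0.48 and 0.49 in sets 1 to 6. No other of the 7 gates passed 0.14 in any set. Its level was 84.4 CPM (82.9 to 85.9) in hepatoma cells and 25 CPM (8.12 to 58.4) on 5 UMIs in neutrophils, a ratio of 3.37 (1.45 to 10.4). RNA of the hepatoma markers was also present in the other gates, at 11.2% of its hepatoma level in T cells to 27.6% in neutrophils. Slc39a4 was at 3.71% to 29.6% of its hepatoma level in those gates, and Slc1a2 at 7.45% to 28.6%. The part of that RNA in the low levels outside the hepatoma gate was not tested. Slc39a4 was no longer called when cells were thinned to 1000 UMIs, while Slc1a2 was. The heme transporter gene Slc48a1 was highest in hepatoma cells in 6 of 6 sets, at 86.2 CPM (84.7 to 87.7), yet was not called, because the other gates held 35.2% to 72.7% of that level, in each gate more than their percentage of hepatoma marker RNA. Macrophages had 62.6 CPM of it, with 104 CPM in the Arg1-high cells and 54.6 CPM in the rest, a ratio of 1.89 (1.28 to 2.76) that was higher in 6 of 6 sets.

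**Figure D2:**
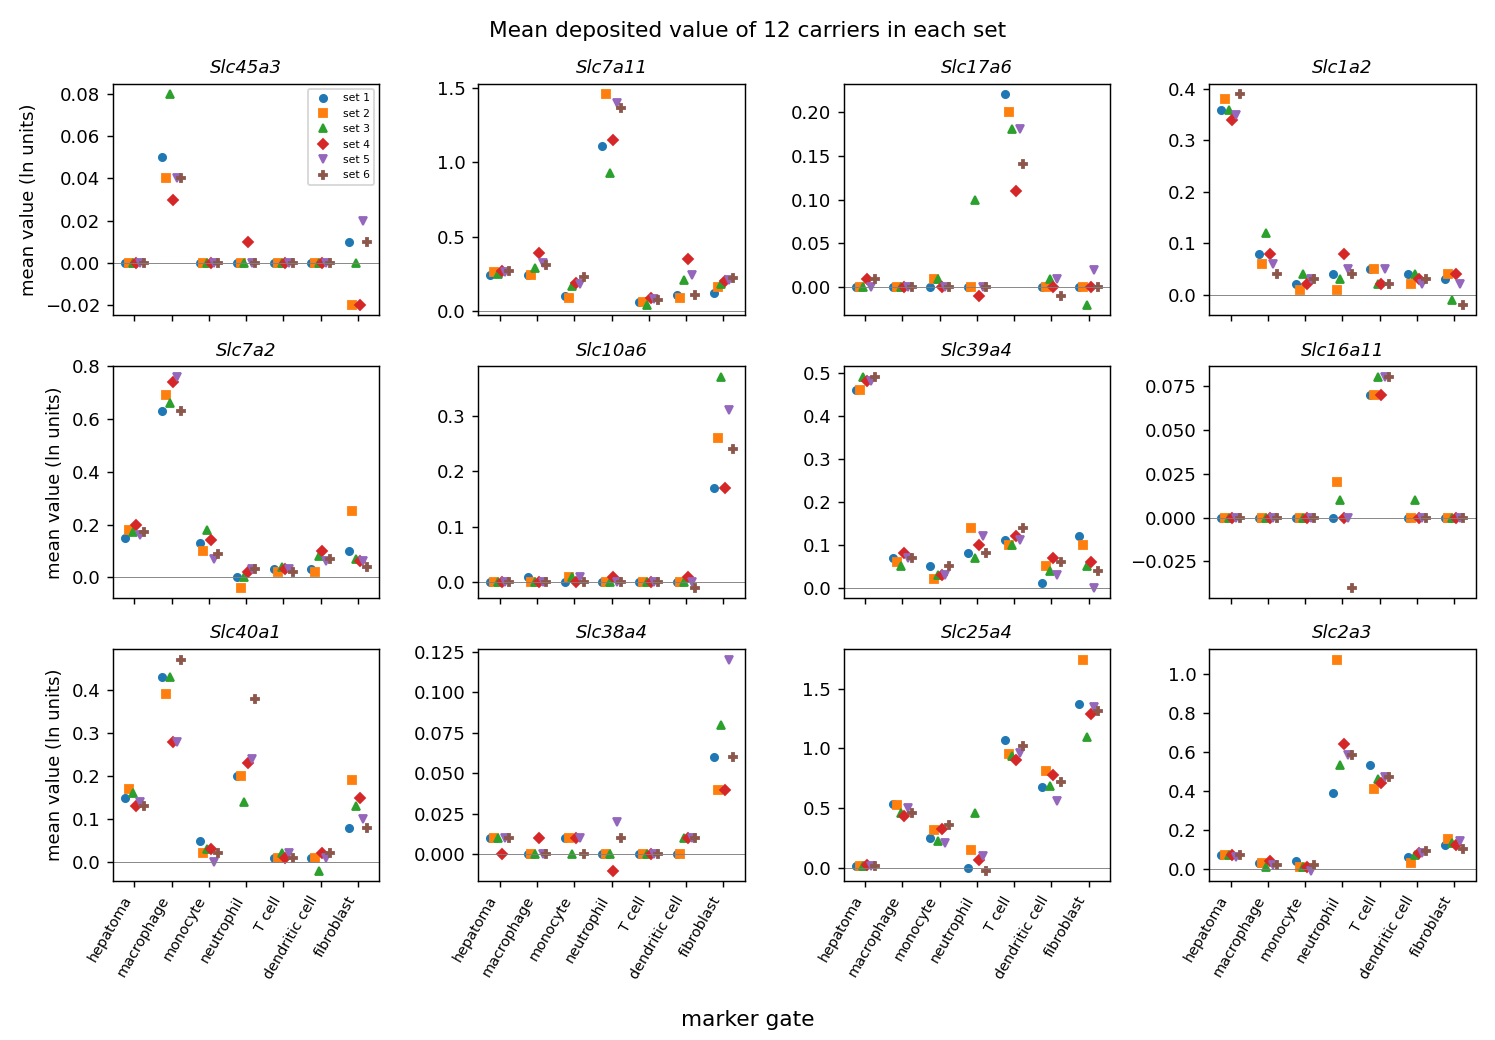
Mean deposited value (natural log units, vertical axis, scaled per panel) of the 10 called carriers and of Slc25a4 and Slc2a3 in the 7 marker gates (horizontal axis), with 1 point per set. Slc7a11 is highest in neutrophils, Slc7a2 and Slc40a1 in macrophages, and Slc17a6 and Slc16a11 in T cells in every set, while Slc2a3 is highest in T cells in set 1 alone.

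Slc17a6 and Slc16a11 marked T cells. Slc17a6 encodes a vesicular glutamate transporter known from neurons. Its mean value in T cells was 0.22, 0.20, 0.18, 0.11, 0.18 and 0.14 in sets 1 to 6, and it was at most 0.02 in the other compared gates except 0.10 in the neutrophils of set 3. In set 1 it had 514 UMIs in T cells, 62.1 CPM (56.8 to 67.7), and 69 UMIs in the far larger hepatoma gate, 0.456 CPM, a ratio of 136 (106 to 178). A UMI was found in 16% of T cells and 1.06% of hepatoma cells, at median depths of 4793 and 17975, and in 5.69% and 0% after thinning to 1000 UMIs. Slc16a11, a member of the monocarboxylate transporter family, had mean values of 0.07, 0.07, 0.08, 0.07, 0.08 and 0.08 in T cells, and at most 0.02 in the other 6 compared gates. The NK gate, which was not compared, had 0.09 in set 3, 0.03 in set 6 and 0.00 in the other 4 sets. Its level was 14.7 CPM (12.2 to 17.6) in T cells and 0.432 CPM on 1 UMI in macrophages, a ratio of 34.1 (6.01 to 1360).

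Other carriers divided the T cell gate. T cells of set 1 with a Cd8a or Cd8b1 value above 0.5 and no such Cd4 value (1074 cells, median 5129 UMIs) were set beside those with the reverse (87 cells, median 3582 UMIs), a split chosen after values had been seen. The sodium, potassium and chloride cotransporter gene Slc12a2 had 20.3 CPM (17.2 to 23.9) in CD8 and 57.1 CPM (38.5 to 81.6) in CD4 cells, a ratio of 0.356 (0.239 to 0.546), and was lower in CD8 cells in 6 of 6 sets. The sulphate transporter gene Slc26a2 had 68.6 and 126 CPM, a ratio of 0.546 (0.422 to 0.717), again lower in 6 of 6 sets. The phosphate importer gene Slc20a1 went the other way, with 75.3 and 47.6 CPM and a ratio of 1.58 (1.06 to 2.46), higher in CD8 cells in 6 of 6 sets. Slc17a6 did not keep 1 direction. In set 1 it had 67.1 CPM in CD8 and 13.3 CPM in CD4 cells, a ratio of 5.03 (2.42 to 12.6) on 7 UMIs in CD4 cells, but its mean value was higher in CD8 cells in only 1 of the 6 sets. Slc16a11 had 15.4 and 13.3 CPM, with a ratio of 1.15 (0.541 to 2.93).

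**Figure D3:**
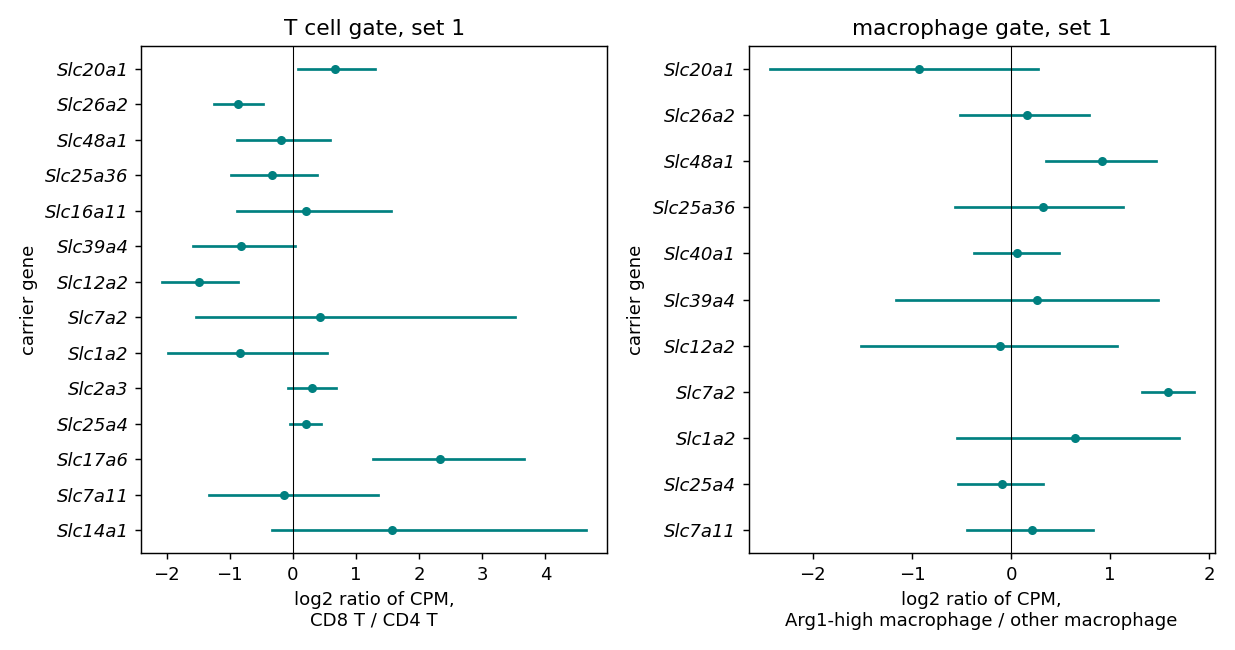
Log2 ratio of CPM (horizontal axis) of carriers with at least 30 UMIs in CD8 over CD4 T cells (left) and in Arg1-high over other macrophages (right) of set 1, with 95% intervals for counting error. Slc12a2 and Slc26a2 lie below 0 and Slc17a6 and Slc20a1 above 0 in T cells, and Slc7a2 and Slc48a1 lie above 0 in macrophages.

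Among the 7 compared gates, the neuronal-type glucose transporter gene Slc2a3 was highest in T cells and neutrophils and was called for neither. Its mean values in T cells were 0.53, 0.41, 0.46, 0.44, 0.47 and 0.47 in sets 1 to 6, and in neutrophils 0.39, 1.07, 0.53, 0.64, 0.58 and 0.58. T cells were higher in set 1 and neutrophils in the other 5 sets. Set 1 gave 143 CPM (135 to 151) and 120 CPM (76.9 to 179), a ratio of 1.19 (0.795 to 1.86), while hepatoma cells held 10.8 CPM and macrophages 6.91 CPM. Of the gates not compared, NK cells had 88.6 CPM on 13 UMIs and plasmacytoid dendritic cells 87.7 CPM on 7. B or plasma cells had 141 CPM on 11 UMIs, 10 of them in 1 cell, and endothelial cells 4.58 CPM on 1 UMI. The mast cell or basophil gate had mean values of 0.03 to 1.46 over the sets. Slc20a1 was likewise higher in neutrophils, at 120 CPM (76.9 to 179), and T cells, at 72.4 CPM, than in hepatoma cells, at 21.6 CPM. The NK gate, which was not compared, had 143 CPM of Slc20a1 on 21 UMIs.

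Fibroblasts were marked by Slc10a6, a sodium-dependent carrier of sulphated steroids. Mean values in fibroblasts were 0.17, 0.26, 0.37, 0.17, 0.31 and 0.24 in sets 1 to 6, with at most 0.01 in the other 6 gates. The level rested on 24 UMIs, 38.7 CPM (24.8 to 57.6), against 1.30 CPM on 3 UMIs in macrophages, a ratio of 29.9 (9.08 to 155), and it was not called after thinning to 1000 UMIs. Slc25a4, which encodes a mitochondrial exchanger of ADP and ATP, was also highest in fibroblasts in 6 of 6 sets. It was not called, since its 468 CPM (416 to 525) was 1.45 times (1.28 to 1.64) the 322 CPM of T cells. Slc25a4 was low in hepatoma cells and, in set 1, in neutrophils. The hepatoma mean value was 0.02 or 0.03 in every set and the level 2.16 CPM (1.93 to 2.41), against 82.1 CPM in monocytes, 154 in macrophages and 182 in dendritic cells, with no UMI among 92 neutrophils. Neutrophil mean values were 0.00, 0.15, 0.46, 0.07, 0.10 and -0.02 in sets 1 to 6, at or below the hepatoma value in sets 1 and 6. The other mitochondrial carrier gene of the table was Slc25a36, for pyrimidine nucleotides. It was at 1.41 CPM in hepatoma cells, 5 CPM on 1 UMI in neutrophils and 26.3 to 37.6 CPM in the other 5 gates. Slc12a2 also had 1.21 CPM in hepatoma cells and 6.26 to 30.7 CPM in the other 6 compared gates.

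Slc45a3, a gene named for a prostate protein and placed among the sugar carriers, was called for macrophages at a low level. Mean values in macrophages were 0.05, 0.04, 0.08, 0.03, 0.04 and 0.04, and at most 0.02 elsewhere among the 7 gates. It had 26 UMIs in macrophages, 11.2 CPM (7.33 to 16.4), and 2 UMIs in fibroblasts, 3.23 CPM, a ratio of 3.48 (0.871 to 30.2) whose interval includes 1. Of the 26 UMIs 7 were in 1 macrophage, and the intervals do not cover such clustering. The mast cell or basophil gate, which was not compared, had far higher mean values in each set, of 1.46, 0.32, 0.52, 1.41, 0.48 and 1.14, so macrophages were the highest only among the 7 compared gates. The endothelial gate had 27.5 CPM on 6 UMIs, all in 1 cell, and the call was lost after thinning or with 5 CPM added. The remaining carriers had no class. The urea transporter gene Slc14a1 was highest in dendritic cells in 4 of 6 sets, with 31.3 CPM on 10 UMIs in set 1. Slc26a2 ranged from 38.7 to 82.1 CPM over the 7 gates. The glucose carrier genes Slc2a12 and Slc5a1, the choline-like carrier gene Slc44a4, the organic anion carrier gene Slc17a3 and the bile acid importer gene Slc10a1 were measured at or below 5 CPM in each of the 7 gates. In the small gates most of these values were 0 UMIs or 1 UMI, and the limit of 3 counts there is 15 CPM in neutrophils, 9.85 CPM in monocytes and 9.39 CPM in dendritic cells. Slc10a1, the hepatocyte bile acid importer, had 36 UMIs in all of set 1, of which 29 were in hepatoma cells, 0.192 CPM. Slc18a2, which loads monoamines into secretory vesicles, had 39 UMIs in set 1. Its mean value in the mast cell or basophil gate, which was not compared, was 2.39, 0.64, 0.51, 0.98, 0.70 and 1.43 over 1, 6, 7, 20, 4 and 35 cells in sets 1 to 6, and at most 0.05 in every other gate.

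Hepatoma states were taken within the hepatoma gate of each set, as the 20% of cells with the highest mean value of 10 hypoxia genes, of 15 genes of G2 and M phase, or of Fabp1, which encodes a fatty acid-binding protein of hepatocytes. In set 1 each state held 1285 cells against 5138 others. Median depths of the state and the other cells were 15815 and 18541 UMIs for the hypoxic, 26483 and 16245 for the cycling, and 28870 and 15521 for the Fabp1-high cells. Near the cut lay 12%, 4.29% and 22.3% of the hepatoma cells. Of the hypoxic cells 1.37% were also cycling and 16.1% also Fabp1-high. A carrier was called when its ratio of CPM plus 1 was at least 1.5 in either direction, on at least 20 UMIs, with the same sign of the difference of mean values in all 6 sets.

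The hypoxic state had the most calls of the 3 states among all tested genes, and so also among carriers. In it 5 carriers were higher (20.8%, against 10.4% of all tested genes) and 2 lower (8.33%, against 21.6%). The median log2 ratio was 0.00 over the carriers and -0.09 over all tested genes. Slc20a1, which imports phosphate, was 0.178, 0.182, 0.169, 0.257, 0.204 and 0.168 higher in mean value in sets 1 to 6. Its level was 49.6 CPM (47 to 52.4) in hypoxic and 15.5 CPM (14.8 to 16.2) in other hepatoma cells, a ratio of 3.20 (2.99 to 3.44). Slc2a3, for glucose, had differences of 0.052, 0.061, 0.046, 0.024, 0.035 and 0.009, smallest in set 6, and 21.3 against 8.45 CPM in set 1, a ratio of 2.52 (2.27 to 2.79). Both carriers were above the other cells in every set.

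Slc14a1, for urea, differed by 0.042, 0.039, 0.033, 0.052, 0.047 and 0.048, with 19.8 against 8.02 CPM and a ratio of 2.47 (2.22 to 2.75). Slc7a11 differed by 0.127, 0.157, 0.129, 0.046, 0.123 and 0.154, least in set 4, with 63.5 against 33.9 CPM and a ratio of 1.87 (1.77 to 1.98). The fifth was the sparse Slc45a3, at 0.923 CPM on 25 UMIs against 0.225 CPM on 28 UMIs, a ratio of 4.09 (2.29 to 7.28) and of 1.57 after 1 CPM is added to both. Its differences were 0.002 to 0.006 over the sets. The hepatoma class marker Slc1a2 was lower in hypoxic cells, with differences of -0.192, -0.217, -0.158, -0.163, -0.164 and -0.138 in sets 1 to 6. It had 33.6 CPM (31.5 to 35.9) against 71.9 CPM (70.4 to 73.4), a ratio of 0.468 (0.437 to 0.501). Slc2a12, another glucose carrier gene, had differences of -0.035 to -0.013, with 2.44 against 4.87 CPM and a ratio of 0.5 (0.382 to 0.645), opposite in direction to Slc2a3. The other hepatoma class marker, Slc39a4, was close to level, with 76.5 against 86.1 CPM and a ratio of 0.888 (0.847 to 0.931). Thinned to 1000 UMIs, Slc20a1, Slc2a3, Slc14a1 and Slc7a11 were still called higher and Slc1a2 lower, while Slc45a3 and Slc2a12 were not.

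Promoter sequences of 3 of these genes are shown, as examples of carriers called higher (Slc20a1 and Slc7a11) and lower (Slc1a2) in hypoxic cells. The window runs from 250 bases before to 50 after the annotated start, from RefSeq on GRCm38.p6. The search was for the hypoxia response core, spelled ACGTG or GCGTG, on both strands. Capitals mark every match, and a CACGTG counts as a match on each strand. Slc20a1 lies at chr2:129198523-129198822 on the plus strand with 5 matches, Slc7a11 at chr3:50443564-50443863 on the minus strand with 0, and Slc1a2 at chr2:102706188-102706487 on the plus strand with 0.
Slc20a1: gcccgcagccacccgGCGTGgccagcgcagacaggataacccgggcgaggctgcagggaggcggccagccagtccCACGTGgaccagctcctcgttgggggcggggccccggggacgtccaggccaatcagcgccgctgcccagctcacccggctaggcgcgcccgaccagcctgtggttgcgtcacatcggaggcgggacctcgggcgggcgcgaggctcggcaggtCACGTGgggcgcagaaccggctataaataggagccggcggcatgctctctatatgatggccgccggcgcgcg
Slc7a11: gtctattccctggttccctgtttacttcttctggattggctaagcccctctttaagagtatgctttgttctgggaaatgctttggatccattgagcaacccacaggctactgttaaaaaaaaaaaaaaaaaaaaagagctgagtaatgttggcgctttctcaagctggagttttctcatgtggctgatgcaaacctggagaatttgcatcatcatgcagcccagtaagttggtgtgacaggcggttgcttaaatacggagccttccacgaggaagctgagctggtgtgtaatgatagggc
Slc1a2: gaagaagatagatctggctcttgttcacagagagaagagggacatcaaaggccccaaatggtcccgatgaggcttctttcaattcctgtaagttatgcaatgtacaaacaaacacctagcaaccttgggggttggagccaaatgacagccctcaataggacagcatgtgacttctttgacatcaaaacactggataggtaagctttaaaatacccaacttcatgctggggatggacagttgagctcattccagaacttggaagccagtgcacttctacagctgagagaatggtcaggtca
Of the 24 carriers 16 were matched in the promoter table, with 22 entries. A match was present in 43.8% of all 32851 promoters of 300 bases in that table. Of the 16 carriers, 6 had a match in at least 1 entry. This is a count of genes, some with several entries, and is not to be set against the share of promoters. Of those called in hypoxic cells, Slc20a1 has another entry with 1 match, 1 of the Slc45a3 entries has 1 match, and Slc2a12 has 0, while Slc2a3 and Slc14a1 were not in the table. Carriers not called in hypoxic cells also had matches, 4 each for Slc16a11 and Slc25a36, 3 for Slc5a1 and 1 in an entry of Slc38a4.

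**Figure D4:**
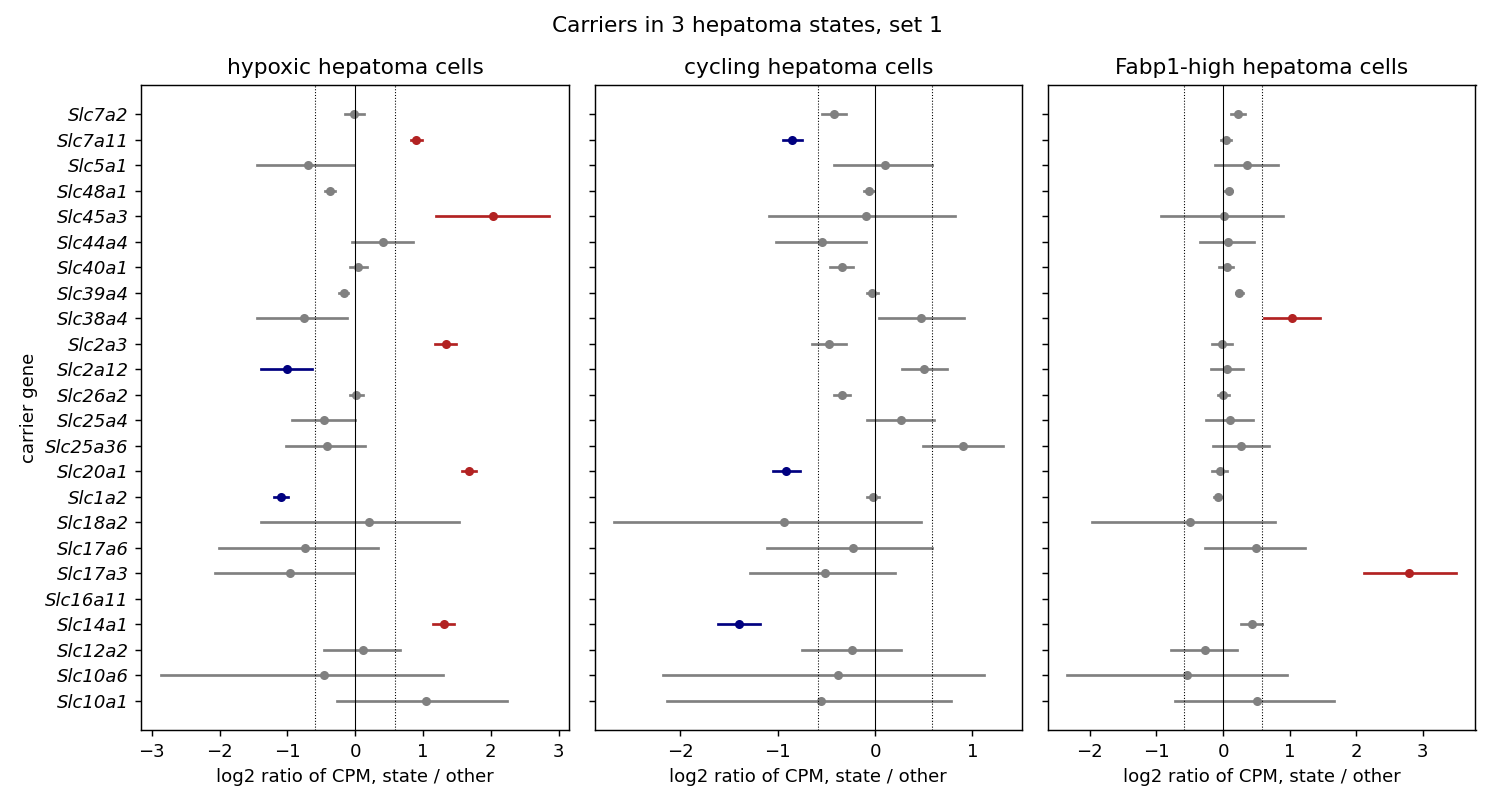
Log2 ratio of CPM (horizontal axis) of each carrier (vertical axis) in hypoxic, cycling and Fabp1-high hepatoma cells over the other hepatoma cells of set 1, with 95% intervals for counting error. Red and blue mark carriers called higher and lower, grey marks those not called, dotted lines mark a fold of 1.5, and Slc16a11 is left out for having fewer than 20 UMIs.

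In cycling cells 0 carriers were called higher, against 9.04% of all tested genes, and 3 lower (12.5%, against 9.97%). The median log2 ratio was -0.08 over the carriers and -0.02 over all tested genes. The lower carriers were 3 of those higher in hypoxic cells, and 1.37% of the cycling cells were also hypoxic. Each state was set against all other hepatoma cells, which held most cells of the other state. The share of all tested genes called both higher in hypoxic and lower in cycling cells was not counted. The overlap therefore cannot be read as particular to carriers. Slc14a1 had differences of -0.031, -0.031, -0.017, -0.039, -0.026 and -0.031 in sets 1 to 6, with 4.65 against 12.2 CPM and a ratio of 0.380 (0.326 to 0.442). Slc20a1 had -0.064, -0.068, -0.053, -0.054, -0.065 and -0.039, with 13.2 against 24.8 CPM and a ratio of 0.532 (0.485 to 0.584). Slc7a11 had -0.1, -0.109, -0.095, -0.080, -0.076 and -0.090, with 24.8 against 44.8 CPM and a ratio of 0.555 (0.518 to 0.593). Set against hepatoma cells in none of the 3 states, Slc14a1 and Slc7a11 were still called, at log2 ratios of -0.84 and -0.59. Slc20a1 was not, at -0.31. Slc25a36 was higher in cycling cells in set 1, with 2.12 against 1.13 CPM and a ratio of 1.87 (1.41 to 2.48). It was not called, since the ratio was 1.46 after 1 CPM is added to both, and it was higher in only 5 of 6 sets. The hepatoma class markers Slc1a2 and Slc39a4 had ratios of 0.984 (0.941 to 1.03) and 0.981 (0.943 to 1.02).

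In Fabp1-high cells 2 carriers were called higher (8.33%, against 5.83% of all tested genes) and 0 lower (against 0.163%). The median log2 ratio was 0.05 over the carriers and 0.00 over all tested genes. Both were sparse. Slc17a3, known as an organic anion and urate carrier of kidney and liver, was higher by 0.011, 0.013, 0.009, 0.014, 0.008 and 0.005 in sets 1 to 6, with 1.63 CPM on 74 UMIs against 0.236 CPM on 25 UMIs. That was a ratio of 6.90 (4.33 to 11.3), and of 2.13 after 1 CPM is added to both. Slc38a4 was higher by 0.010, 0.015, 0.006, 0.001, 0.006 and 0.009, with 2.07 against 1.01 CPM and a ratio of 2.05 (1.53 to 2.73). Of the 201 Slc38a4 UMIs in the hepatoma gate 21 were in 1 cell, as were 13 of the 99 Slc17a3 UMIs. The intervals do not cover such clustering. With 5 CPM added, or after thinning to 1000 UMIs, neither carrier was called. Slc39a4 was higher in 6 of 6 sets but below the fold, with 94.7 against 80.0 CPM and a ratio of 1.18 (1.14 to 1.23). The cycling and Fabp1-high cells were also the deeper cells. After thinning, the 3 lower carriers of the cycling cells were still called.

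Other membrane transporters of the table were counted by the same rules. Of 15 genes (3 Slco organic anion transporters, 8 ABC transporters and 4 aquaporins) 5 were called for a class. These were Slco1b2 and Aqp5 for hepatoma cells, Abcg3 for macrophages, and Abca8a and Abcc9 for fibroblasts. In hypoxic hepatoma cells 3 were higher and 3 lower, in cycling cells 0 and 3, and in Fabp1-high cells 3 and 0. Over all tested genes 37% were called for a class. The shares called higher and lower were 10.4% and 21.6% in hypoxic, 9.04% and 9.97% in cycling, and 5.83% and 0.163% in Fabp1-high cells. The 15 genes are too few to set against these shares. The hepatic uptake transporter gene Slco1b2 was at 14.9 CPM in hypoxic and 57.5 CPM in other hepatoma cells, and the water channel gene Aqp8 at 21.3 and 5.11 CPM. The 3 lower in cycling cells, Slco2a1, Abcb4 and Aqp8, were the 3 higher in hypoxic cells. How many of all tested genes were called in both of these ways was not counted, so this overlap cannot be read as particular to transporters.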

How the data were processed

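RNA of single cells from dissociated Hepa1-6 tumours was sequenced from its 3′ end after capture in droplets, with a cDNA and an oligo entry per group counted as 1 sample. Reads were aligned with STAR 2.7.2b, and PISA and barcodeRanks of DropletUtils were used, per the labels' protocols and the submitters' processing notes. The protocol names GRCh38 and the notes also mm10, with no role given, so no coordinates come from the deposited data. The deposited table holds natural log values of 2000 genes in 53528 columns, none of which is tied to a sample. In set 1, 100% of the nonzero values were whole UMI counts within 0.01, each being the natural log of 1 plus UMIs per 10000. Every cell of sets 2 to 6 had values below 0, changed by a step recorded in no source used here, so counts come from set 1 and the depth of the other sets is unknown. Set 1 cells had 1001 to 261833 UMIs (median 11099), of which the table's genes took 15%. Without the set number, 12741 cell names occur in more than 1 set.

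Each marker value was set to 0 if below 0 and divided by its 99.8th percentile, to at most 1, and averaged per list. A cell took the class of the highest score if this was at least 0.15 and the next at most 0.8 times it. Near the cut means within 10% of it. This rule was settled after the data had been seen, and the members, lists and tests were chosen with earlier results of these data known. Ion-pumping ATPases, also listed among other transporters at first, are not reported here. Every carrier called for a class or state is named, and the others are accounted for. No doublet caller was run, cells whose second score passed 0.8 times the first stayed ungated, so weaker mixtures of 2 lineages remain in the gates, and leaving out the 5% of cells with the most UMIs was an alternative. No cell was too shallow for thinning to 1000 UMIs. Ratios have conditional Poisson intervals, shares exact Clopper-Pearson ones. No p-value was computed, since the cells are 1 sample. Python 3.11.15, numpy 2.4.6, scipy 1.17.1 and matplotlib 3.10.9 were used, and scripts were tested on simulated data.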

Additional observations from a re-analysis of the deposited data

How the results depend on the processing

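Of 64 alternative counts of called carriers, 51 stayed within 1.5 times the reported count and 13 did not. The 51 include counts of 0 that stayed 0, for carriers higher in cycling and lower in Fabp1-high cells. With a raised fold a count of 0 could not change. The 10 class calls became 6 after thinning to 1000 UMIs, without Slc10a6, Slc38a4, Slc39a4 and Slc45a3, and were 7 to 11 under the other alternatives. For Slc38a4 in fibroblasts, whose 10 UMIs thinned to 0, the log2 ratio reversed to -3.58. With a fold of 2, the higher and lower counts became 3 and 1 in hypoxic cells, the lower count 1 in cycling cells and the higher count 1 in Fabp1-high cells. Against cells in none of the 3 states, the lower count was 1 in hypoxic and the higher count 1 in Fabp1-high cells. Both thinning and 5 CPM gave 1 lower in hypoxic and 0 higher in Fabp1-high cells. A stricter gate, added after the data were seen, called 1 carrier (Slc25a36) higher in cycling cells, and a list of S phase genes in place of G2 and M called 1 (Slc2a12). Of 191 alternative values of single carriers, 159 stayed within counting error of the reported value, 31 moved beyond it in the same direction and 1 reversed. The 159 include values under a changed fold, a changed minimum of UMIs or no condition on the sets. Those settings alter only the call rule, so these values could not move and say nothing of stability. The neutrophil, dendritic cell, fibroblast and monocyte gates of set 1 hold under 100 cells each, which limits the precision of low carriers there. No paired analysis was possible because the cells are tied to no group or replicate.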
